A study of Mus musculus with 1753 samples.

Results

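The 10 genes described here encode the secreted TGF-beta ligands (Tgfb1, Tgfb2, Tgfb3), their receptors (Tgfbr1, Tgfbr2, Tgfbr3) and the latent TGF-beta binding proteins (Ltbp1, Ltbp2, Ltbp3, Ltbp4). They were chosen by name, as the rows of the count table whose Ensembl identifiers map to these symbols, and all 10 were found among the 46517 genes of the table. Each gene was measured in 1753 single cells of adult mouse skeletal muscle and is described across 10 cluster labels and 5 strain labels.

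TGF-beta is secreted as a latent complex in which the ligand stays wrapped in its own propeptide, and most cells link that propeptide to a latent TGF-beta binding protein (LTBP), which ties the complex to fibrillin and fibronectin fibres of the extracellular matrix. Integrins, thrombospondin and proteases can release the ligand, which then binds the type II receptor (Tgfbr2). The type II receptor recruits and phosphorylates the type I receptor (Tgfbr1), and the signal passes to Smad proteins in the nucleus. Tgfbr3, or betaglycan, is a co-receptor that presents ligand and matters most for Tgfb2, which binds Tgfbr2 poorly on its own. Of the LTBPs, Ltbp1, Ltbp3 and Ltbp4 can carry latent ligand, whereas Ltbp2 does not bind it and sits in elastic fibres and tendon. In muscle the pathway is known for matrix production by fibroblasts and for fibrosis after injury.

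The cells came from hindlimb muscle of male mice aged 10 to 20 weeks on a C57BL6 background. C57BL6 mice carried no reporter, whereas Acta2GFP, Cspg4dsRED and PdgfrbGFP mice expressed a fluorescent protein from the promoter of the named gene, and the label PdgfraGFP - PdgfrbGFP pool (the pool) held cells of both lines. Cells had been sorted for PDGFRα or PDGFRβ protein or for a reporter and against the endothelial protein CD31, so cells outside these gates were not measured. The labels give no treatment and no mutation of a member gene. They name no animal, so the strain label served as the replicate and n below is a number of strain labels. With no statement that each label is a separate mouse, p-values measure only the spread between labels. Clusters 1, 3, 5, 6 and 8 are endomysial fibroblasts (1116 cells, around single muscle fibres), clusters 2 and 9 perimysial (328 cells, around fibre bundles), cluster 4 paramysial (60 cells), cluster 7 mural cells (187 cells, the smooth muscle cells and pericytes of vessel walls) and cluster 10 (62 cells) is a further fibroblast subtype, named here by its number. The fibroblasts set against mural cells included cluster 10. The clusters had been made by the study from these same counts, so differences between them describe the clustering as well.

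Cells held 46097 to 1055869 counts (median 258251), and Cspg4dsRED was shallowest with a median of 121646 counts. A level is given as counts per 500000 counts of the cell, averaged over the cells of a class within a strain label and then over strain labels. A cell was counted as positive at 100 or more such scaled counts, and levels were compared between genes only per kilobase of exon. Of the 5 mural markers (Myh11, Notch3, Mcam, Rgs5, Des), 4 were positive in more than 50% of cluster 7 cells and 0 in more than 50% of any other class. All 5 fibroblast markers passed 50% in endomysial, paramysial and cluster 10 cells, but 2 did in perimysial and 1 in mural cells. Of the 5 perimysial markers, 4 passed 50% in perimysial cells and 0 in endomysial cells. The summed endothelial markers ranged from 23.1 to 115.6 scaled counts over strains in endomysial cells and from 5.47 to 20.8 in perimysial cells, and the immune markers from 2.42 to 11.95 and from 0.358 to 9.57. In mural cells these sums were 3.67 to 110.7 and 0.437 to 130.1. Tek, an angiopoietin receptor, gave 74.6 ± 37.8 of the endothelial sum in endomysial cells, and the part of such cells or RNA in the results was not tested beyond leaving out cells that held other endothelial or immune markers. Cspg4dsRED differed in make-up too, since 90.2% of its endomysial cells lay in cluster 6, against 3.33% to 23.4% in the other strains.

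**Figure D1:**
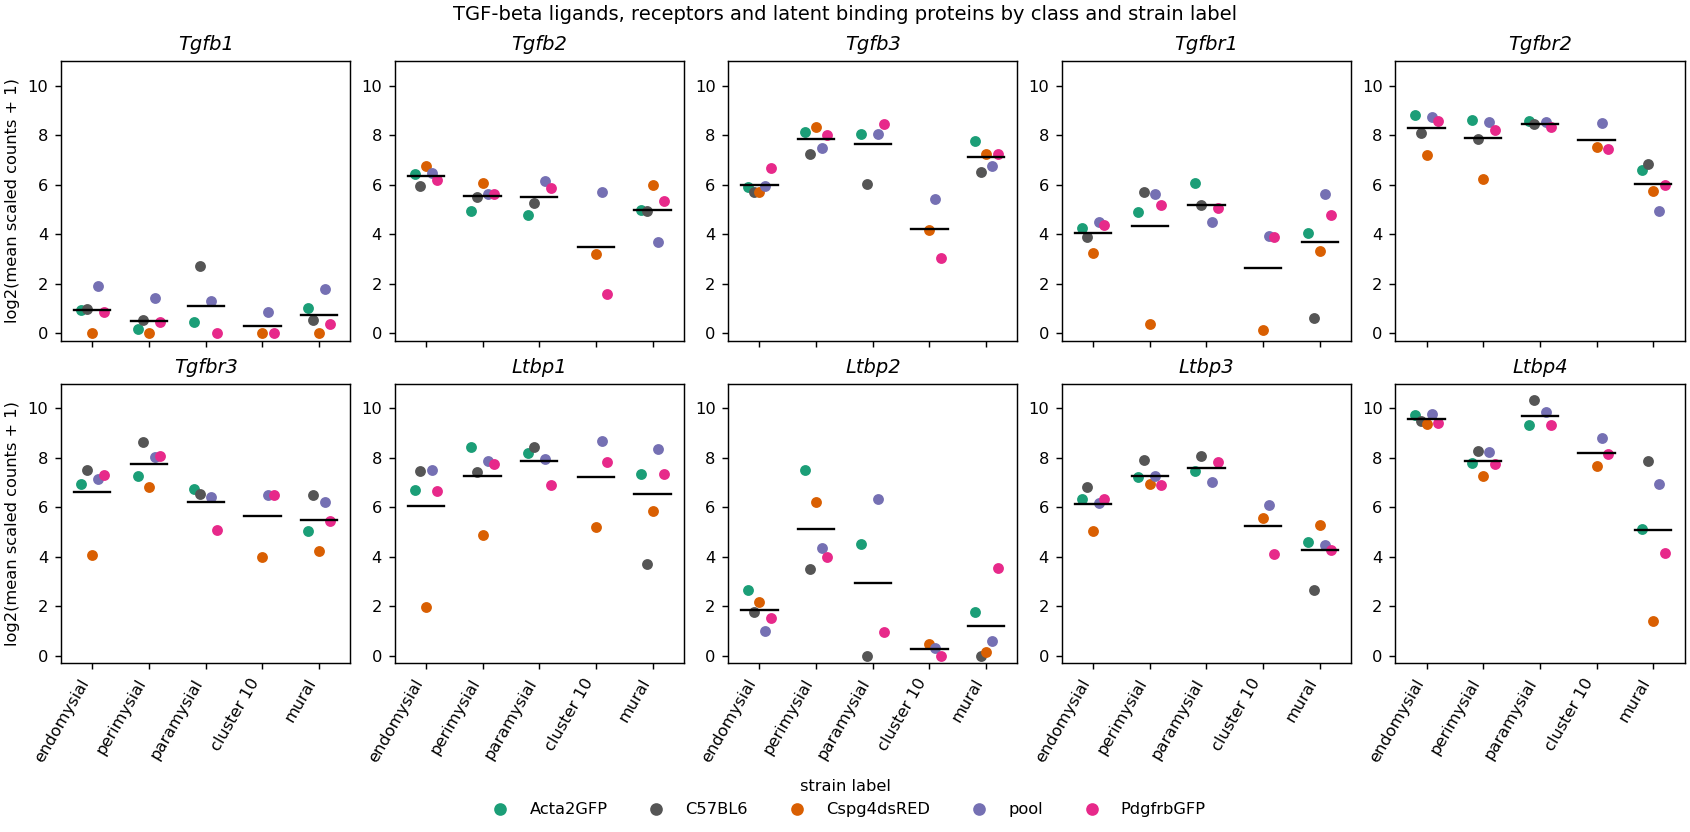
Levels of the 10 genes by class. Each point is the mean of 1 strain label on a log2(mean scaled counts + 1) axis, coloured by strain, and each bar is the mean of these log2 values. Tgfb1 lay near 0 throughout, and perimysial points for Tgfb3, Ltbp2 and Ltbp3 lay above all endomysial points whereas those for Ltbp4 lay below them.

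Among the ligands, Tgfb3 and Tgfb2 made up nearly all transcripts and Tgfb1 was almost absent. Tgfb1 (ENSMUSG00000002603, chromosome 7, 25687002 to 25705077 on the plus strand of GRCm38), the ligand best known from platelets and immune cells, had a count in 174 cells, or 9.93%, with a median of 2.5 counts in those cells and a highest value of 181. Only 3 cells reached 100 scaled counts, and all 3 were endomysial. For the other classes the 0 positive cells allow, at 3 counts of the total, shares of up to 0.915% in perimysial, 1.60% in mural, 4.84% in cluster 10 and 5.00% in paramysial cells. Mean levels of Tgfb1 lay between 0.269 and 1.87 scaled counts in the 5 classes, and differences between them were not detectable at this depth.

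Tgfb2 (ENSMUSG00000039239, chromosome 1, 186622792 to 186705989, minus strand), a ligand with roles in heart and connective tissue development, was highest in endomysial cells at 82.7 ± 17.2 scaled counts (SD, n = 5). It stood at 47.8 ± 13.3 in perimysial (n = 5), 47.9 ± 19.9 in paramysial (n = 4), 35.1 ± 18.7 in mural (n = 5) and 20.3 ± 26.6 in cluster 10 cells (n = 3), and the ranges over strains of each neighbouring pair in this order overlapped. Positive cells made up 26.7% ± 5.50 of endomysial and 14.2% ± 4.13 of perimysial cells. By cluster, Tgfb2 was highest in clusters 1 (129.6 ± 67.7, n = 4) and 6 (120.8 ± 16.5, n = 4), and every strain in cluster 6 lay above every strain in cluster 3, the next in order. Of its exonic bases 2.14% are shared with an antisense gene, and whether reads were counted by strand is not given in the sources used here.

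Tgfb3 (ENSMUSG00000021253, chromosome 12, 86056745 to 86079041, minus strand), a ligand of tendon and palate development, followed another order. It reached 237.9 ± 70.1 scaled counts in perimysial and 237.2 ± 122.2 in paramysial cells, 143.2 ± 48.3 in mural, 64.3 ± 20.6 in endomysial and 22.3 ± 17.9 in cluster 10 cells. Only the step from endomysial to cluster 10 cells had no overlap between strains. Positive cells made up 57.1% ± 14.0 of perimysial, 67.4% ± 27.3 of paramysial, 29.6% ± 12.1 of mural and 24.5% ± 5.39 of endomysial cells. Tgfb3 shares 12.4% of its exonic bases with 2 other annotated genes, so its counts carry that uncertainty.

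Per kilobase, Tgfbr2 was the highest receptor by its mean in every class but perimysial cells. Tgfbr2 (ENSMUSG00000032440, chromosome 9, 116084293 to 116175360, minus strand), the ligand-binding kinase, was measured at 355.4 ± 22.8 scaled counts in paramysial, 334.8 ± 125.4 in endomysial, 271.8 ± 127.6 in perimysial and 239.2 ± 104.7 in cluster 10 cells, whose ranges overlapped one another, and 71.0 ± 33.6 in mural cells, below every strain of cluster 10. Tgfbr1 (ENSMUSG00000007613, chromosome 4, 47353222 to 47414931, plus strand), the signalling kinase that every canonical TGF-beta signal requires, was far lower. It ranged from 9.39 ± 8.06 in cluster 10 to 38.6 ± 18.9 in paramysial cells, and 5.32% ± 2.29 of endomysial cells were positive. With a level of 20 scaled counts in place of 100, the share of endomysial cells rose to 17.1%, and after thinning every cell to 50000 counts 24.7% had 1 or more counts of Tgfbr1. Shares of cells with this transcript thus depend on the level chosen, and a cell without it is not shown to lack it.

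Tgfbr3 (ENSMUSG00000029287, chromosome 5, 107106570 to 107289629, minus strand) was highest in perimysial cells at 237.6 ± 109.6 scaled counts. Endomysial cells stood at 124.9 ± 65.0, paramysial at 79.2 ± 32, cluster 10 at 64.3 ± 42.9 and mural cells at 51.4 ± 30.0, with overlap between strains at every step. Per kilobase, Tgfbr2 took 67.5% ± 11.3 of the transcripts of the 3 receptors in endomysial cells and 43.8% ± 13.3 in perimysial cells, where Tgfbr3 took 50.4% ± 14.3. Tgfbr1 took 4.28% ± 1.01 in endomysial, 5.73% ± 3.26 in perimysial and 16.2% ± 12.1 in mural cells.

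Few cells were positive for Tgfbr1, and in endomysial cells most of these were positive for Tgfbr2, as were most endomysial cells. Of 72 endomysial cells positive for Tgfbr1, 60 were also positive for Tgfbr2. That is 83.3% of the former and 7.34% of the 817 cells positive for the latter, and 73.2% of all endomysial cells were positive for Tgfbr2. Among mural cells 8 were positive for Tgfbr1 and 37 for Tgfbr2, and 0 of 187 were positive for both. That allows a share of up to 1.60%. With 4.28% and 19.8% of mural cells positive for the single genes, few with both could be found, so the 0 says little. For ligand and type II receptor, in perimysial cells 114 of 167 cells with Tgfb3 also held Tgfbr2 (68.3%), and in paramysial cells 41 of 42 did (97.6%), against 10 of 65 mural cells (15.4%). Among all cells of these classes 63.4%, 95% and 19.8% were positive for Tgfbr2, near the shares among cells with Tgfb3. These cells share strains and depth, and the counts are given as a description.

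Per kilobase, Ltbp4 was the highest LTBP by its mean in every class but mural cells. Ltbp4 (ENSMUSG00000040488, chromosome 7, 27305136 to 27337692, minus strand), which binds fibrillin and elastic fibres and carries latent Tgfb1, was also the highest of the 10 genes in endomysial, paramysial and cluster 10 cells, with no overlap with the next gene in endomysial cells alone. In perimysial cells Tgfb3 stood at 70.3 ± 20.7 scaled counts per kilobase and Ltbp4 at 37.2 ± 10.2, with overlap. Ltbp4 reached 867 ± 306 scaled counts in paramysial and 758 ± 97.3 in endomysial cells, 308.9 ± 122.2 in cluster 10, 240.7 ± 66.1 in perimysial and 81.8 ± 97.4 in mural cells, or 43.5 ± 53.4 in mural cells without C57BL6. The endomysial strains all lay above those of cluster 10. It was positive in 90.3% ± 6.4 of endomysial, 55.6% ± 17.2 of perimysial and 9.69% ± 9.88 of mural cells.

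Ltbp1 (ENSMUSG00000001870, chromosome 17, 75005568 to 75392512, plus strand), the LTBP that couples to latent ligand in most tissues, was spread more evenly. Its means ran from 113.1 ± 72.8 scaled counts in endomysial to 252.5 ± 96.5 in paramysial cells, with 144.7 ± 122.1 in mural, 198.7 ± 113.8 in perimysial and 223.6 ± 186.0 in cluster 10 cells, and neighbours overlapped at every step. Ltbp3 (ENSMUSG00000024940, chromosome 19, 5740904 to 5758532, plus strand), which also carries latent ligand and is needed for bone and tooth development, stood at 201.9 ± 61.7 in paramysial and 158.2 ± 50.4 in perimysial cells. Every perimysial strain lay above every endomysial strain (75.4 ± 29.2), and cluster 10 (43.3 ± 25.9) and mural cells (21.4 ± 11.7) overlapped each other.

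Ltbp2 (ENSMUSG00000002020, chromosome 12, 84783212 to 84876532, minus strand) had a count in only 245 cells. It averaged 59.6 ± 71.8 scaled counts in perimysial, 25.9 ± 37.8 in paramysial, 2.86 ± 1.69 in endomysial, 2.74 ± 4.52 in mural and 0.221 ± 0.204 in cluster 10 cells. The perimysial mean rests unevenly on its strains, with 179.7 in Acta2GFP, 73.6 in Cspg4dsRED, 19.4 in the pool, 15.0 in PdgfrbGFP and 10.4 in C57BL6, and without Acta2GFP it was 29.6 ± 29.6. The paramysial mean rests on the pool, at 80.4 against 22.2 in Acta2GFP, 0.943 in PdgfrbGFP and 0 in C57BL6, and without the pool it was 7.72 ± 12.6. Without PdgfrbGFP the mural mean was 0.769 ± 1.15. An antisense gene covers 9.34% of its exonic bases.

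**Figure D2:**
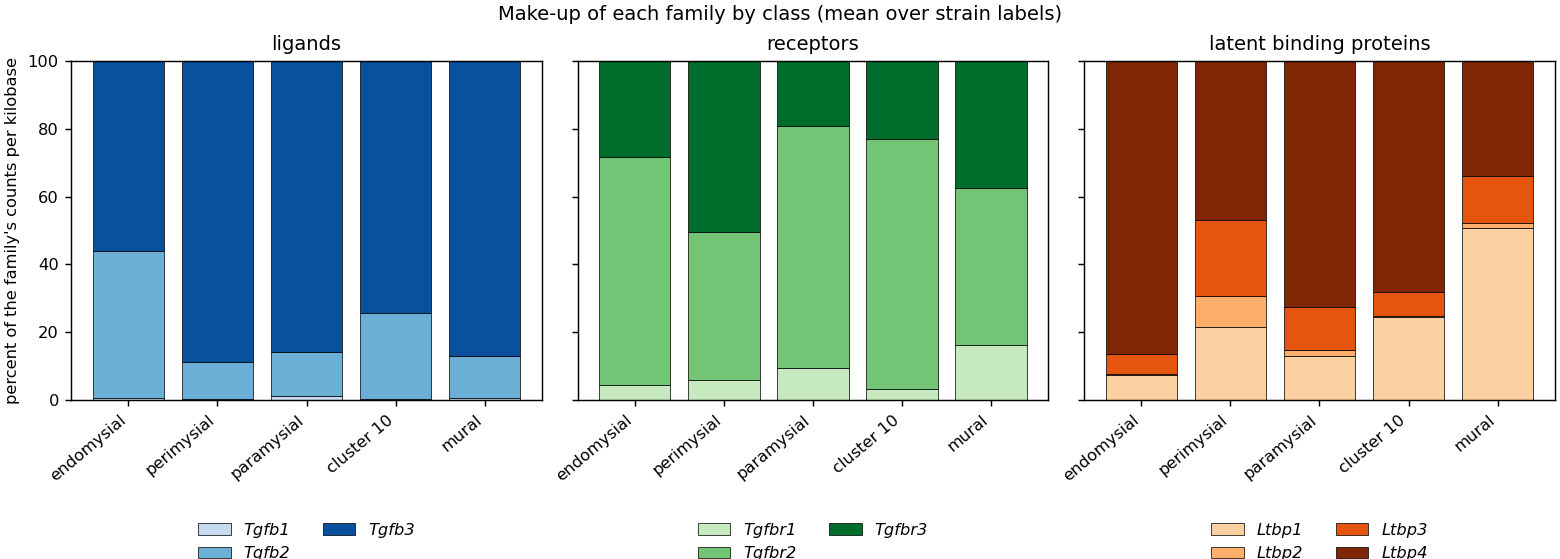
Make-up of each family by class. Stacked bars give the mean percent that each gene takes of the scaled counts per kilobase of its family, averaged over strain labels. Tgfb3 took 56.1% of ligand transcripts in endomysial and 88.9% in perimysial cells, and Ltbp4 took 86.4% of LTBP transcripts in endomysial and 33.8% ± 36.7 in mural cells, where it ranged from 2.58% to 95.5% over strains and was 18.4% ± 14.4 without C57BL6 (9 cells).

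Mural cells were compared with all fibroblasts to ask which of these genes set the populations apart. The type II receptor, the co-receptor and the matrix-anchoring Ltbp3 and Ltbp4 were lower in mural cells, while the ligands were not called in either direction. Of the 10 genes, 4 were called at an adjusted p under 0.05 (edgeR's quasi-likelihood test on counts summed per class and strain, with strain as a block), all 4 lower in mural cells. Of all genes, 15.4% of the 13880 genes tested were called, 6.15% higher and 9.27% lower in mural cells. The median log2 fold change was -1.1 for the 10 genes and -0.46 for all genes tested.

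Tgfbr2 stood at 95.6 scaled counts in mural cells of Acta2GFP, 113.7 in C57BL6, 53.6 in Cspg4dsRED, 29.6 in the pool and 62.4 in PdgfrbGFP. The fibroblast values of the same strains were 424.0, 253.8, 149.4, 412.2 and 364.3. The groups did not overlap, and the log2 fold change was -2.13 ± 0.32 (SE), lower in 5 of 5 strains and on 8 of 8 plates, with an adjusted p of 0.00292. Ltbp4 was 34.3, 235.1, 1.64, 121.1 and 16.8 in mural cells in the same strain order, and 615, 558, 413, 812 and 611 in fibroblasts. Mural values spread widely for this gene but stayed below every fibroblast value. The highest mural value of both genes, in C57BL6, came from 9 cells, of which 4 held endothelial or immune markers. The log2 fold change of Ltbp4 was -4.51 ± 0.90, with an adjusted p of 0.0106. Tgfbr2 and Ltbp4 were called under every alternative tried.

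Ltbp3 was lower in mural cells in 5 of 5 strains (log2 fold change -2.19 ± 0.47, adjusted p = 0.0142), at 5.37 to 38.0 scaled counts against 54.8 to 169.6 in fibroblasts, with no overlap. Tgfbr3 was also lower in 5 of 5 strains (-1.36 ± 0.33, adjusted p = 0.0237), although its ranges overlapped, at 18.1 to 90.2 against 32.6 to 270.9. Neither call held with each strain left out in turn. Without Acta2GFP the adjusted p was 0.064 for Ltbp3 and 0.099 for Tgfbr3, without PdgfrbGFP 0.057 and 0.11, and for Tgfbr3 0.069 without the pool and 0.065 without the replicate block. Leaving out cells with endothelial or immune markers gave 0.075 for Tgfbr3. Ltbp2, at -5.55 ± 1.72 with an adjusted p of 0.0656, was not called, but passed without PdgfrbGFP (adjusted p = 0.0098) and with DESeq2 (adjusted p = 6.2e-06).

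Tgfb3 had a log2 fold change of 0.58 ± 0.24 (adjusted p = 0.168), Tgfb2 of -0.81 ± 0.43 (0.271), and Tgfb1, Tgfbr1 and Ltbp1 of 0.36 ± 1.21, -0.18 ± 0.94 and -0.16 ± 0.66. The directions of the last 3 changed under some alternatives.

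Of the 17 genes on the list for storing and releasing TGF-beta, 15 could be tested, 7 were lower in mural cells and 2 higher. The lower genes included Fbn2, a fibrillin (log2 fold change -6.58), Mmp2, a gelatinase (-5.88), and Fn1, fibronectin (-4.52). Lrrc32, a membrane protein that holds latent TGF-beta on the cell surface, rose by 2.40 on the log2 scale, and Itgb1, a shared integrin subunit, by 1.26. Of the 5 proteoglycans that bind TGF-beta, 4 were lower and 0 higher, among them Lum at -5.43, Dcn at -4.06 and Fmod at -3.09, and Lum and Dcn are fibroblast markers as well. The list of 5 co-receptors and decoys also holds Acvrl1, which is a type I receptor and neither of these. Of this list 3 genes were lower: Cd109 (-5.83), Acvrl1 (-5.11) and Bambi (-5.10). Among 13 target genes, 6 were lower, led by the protease inhibitor Timp1 (-6.17), the tendon factor Scx (-6.14) and the matrix protein Cilp (-5.98). The 3 higher targets were the smooth muscle genes Tagln (6.65) and Acta2 (5.53), which define the contractile apparatus of mural cells, and Tgfb1i1 (2.13), a focal adhesion protein. Of 11 Smads and regulators tested, edgeR called 0, while 7 had an unadjusted p under 0.05 and DESeq2 called 6. The list medians were -2.4, -3.1, -5.1, -3.9 and -1.7 for storage, proteoglycans, co-receptors, targets and Smads.

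**Figure D3:**
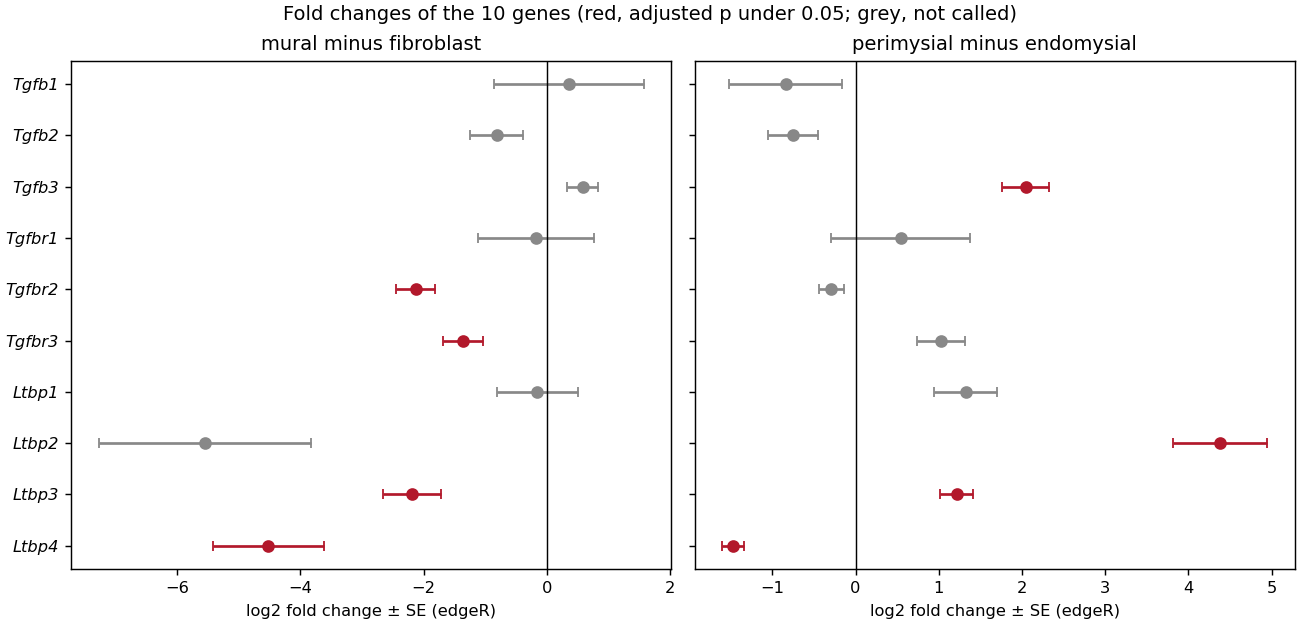
Fold changes of the 10 genes. Points give the log2 fold change and bars its standard error from edgeR, on a linear axis, for mural minus fibroblast cells (left) and perimysial minus endomysial cells (right). Red points passed an adjusted p of 0.05. All 4 red points on the left lie below 0, and on the right Tgfb3, Ltbp2 and Ltbp3 lie above 0 and Ltbp4 below.

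Perimysial were compared with endomysial fibroblasts to describe the connective tissue layers of the muscle. As a class, perimysial cells held more of the ligand Tgfb3 and of Ltbp2 and Ltbp3, and less Ltbp4. The class mixes clusters 2 and 9 unequally, and cluster 9 gave 23 of 35 cells in Acta2GFP but 12 of 152 in C57BL6. By edgeR 4 of 10 genes were called, 3 higher and 1 lower, where 5.57% of 14121 genes tested were called, 2.32% higher and 3.26% lower. The median log2 fold change was 0.78 for the 10 genes and -0.19 for all genes.

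The RefSeq promoters of the 3 LTBP genes called here are shown because these neighbours in 1 family moved in opposite directions. Sequences of the GRCm38.p6 build, read 5′ to 3′ on the strand of the gene, begin 250 bases before the RefSeq start and end at that start or where the annotated gene begins. Capitals mark CAGAC or its reverse complement GTCTG, the core of the Smad binding element.
Ltbp2 (chr12:84876533-84876741, minus strand): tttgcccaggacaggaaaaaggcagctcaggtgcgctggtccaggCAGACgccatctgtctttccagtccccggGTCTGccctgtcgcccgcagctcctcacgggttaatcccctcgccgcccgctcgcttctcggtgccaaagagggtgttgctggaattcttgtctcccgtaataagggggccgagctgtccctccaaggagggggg
Ltbp3 (chr19:5740650-5740899, plus strand): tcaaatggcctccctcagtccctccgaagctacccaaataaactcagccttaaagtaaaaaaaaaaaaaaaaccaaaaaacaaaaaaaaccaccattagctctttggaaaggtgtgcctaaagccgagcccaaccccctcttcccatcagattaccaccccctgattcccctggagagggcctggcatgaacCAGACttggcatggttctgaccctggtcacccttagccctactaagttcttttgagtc
Ltbp4 (chr7:27337693-27337862, minus strand, the first of 3 starts): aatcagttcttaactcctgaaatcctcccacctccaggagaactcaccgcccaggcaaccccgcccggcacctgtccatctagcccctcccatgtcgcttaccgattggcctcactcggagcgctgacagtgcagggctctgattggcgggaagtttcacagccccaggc

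The core was found at 2 positions before Ltbp2, at 1 before Ltbp3 and at 0 before this start of Ltbp4, counting both strands of the 250 bases before the start. It was also found before Tgfb2 (2 positions), Tgfbr2 (1), 1 of 2 starts of Tgfbr1 (1) and the 2 starts of Ltbp1 (1 and 2), and not before Tgfb1. None of these other genes was called in this comparison. Since 42.1% of 27025 genes hold it in the first listed promoter of this length, a match is a description and not a binding site. The promoter table held 8 of the 10 genes, and Tgfb3 and Tgfbr3 were not among them.

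Tgfb3 stood at 276.7 scaled counts in perimysial cells of Acta2GFP, 152.0 in C57BL6, 321.5 in Cspg4dsRED, 180.1 in the pool and 259.1 in PdgfrbGFP. The endomysial values were 58.4, 50.7, 51.3, 60.7 and 100.4. All perimysial values exceeded all endomysial ones, with a log2 fold change of 2.05 ± 0.28 and an adjusted p of 0.00584, and perimysial cells were higher on 7 of 7 plates that held both classes. Ltbp2 rose by 4.38 ± 0.57 (adjusted p = 0.0044) in 5 of 5 strains and on 7 of 7 plates. Its endomysial values were 1.04 to 5.39 scaled counts, against the 10.4 to 179.7 of perimysial cells given above. Cluster 2 alone stood at 4.36 in Acta2GFP and 4.39 in the pool, within the endomysial range, and at 5.51 to 38.4 in the other strains. Of all cluster 2 cells 2.97% were positive for Ltbp2.

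Ltbp4 moved the other way. Perimysial levels were 219.8, 310.4, 155.2, 304.8 and 213.5 scaled counts in the same strain order, and endomysial levels 844, 728, 657, 877 and 686. The log2 fold change was -1.47 ± 0.13, lower in 5 of 5 strains and on 7 of 7 plates, with an adjusted p of 0.000838. Ltbp3 was 147.3, 244.3, 124.0, 155.1 and 120.3 in perimysial against 80.6, 113.9, 32.3, 70.9 and 79.4 in endomysial cells, a log2 fold change of 1.21 ± 0.20 (adjusted p = 0.0130). It was higher on 6 of 7 plates. Cluster 2 alone stood at 49.99 in Acta2GFP, below the endomysial value there, and above the endomysial value in the other strains. The call of Ltbp3 was lost without C57BL6 (adjusted p = 0.066) and without the pool (0.073), whereas Tgfb3, Ltbp2 and Ltbp4 were called under every alternative tried.

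Tgfbr3 and Ltbp1 had log2 fold changes of 1.03 ± 0.29 and 1.32 ± 0.38, but were not called (adjusted p = 0.103 and 0.112). The mean level of Tgfbr3 was above the endomysial one in 5 of 5 strains and on 7 of 7 plates. That of Ltbp1 was above it in the other strains but not in C57BL6, at 173.8 against 175.1, and on 6 of 7 plates. DESeq2 called both, with adjusted p of 0.037 and 0.02. Tgfbr2 had a value of -0.29 ± 0.15 (0.423), Tgfb2 of -0.75 ± 0.30 (0.270), Tgfb1 of -0.84 ± 0.68 (0.657) and Tgfbr1 of 0.54 ± 0.84 (0.827). Tgfbr1 was near 0 in perimysial cells of Cspg4dsRED (0.298 scaled counts) and 28.9 to 50.9 in the other strains, and without Cspg4dsRED its log2 fold change was 1.22 with an adjusted p of 0.035.

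Target genes moved in both directions between these layers. Of 13, 7 were higher and 2 lower in perimysial cells. Scx, a transcription factor of tendon cells, rose by 8.57 on the log2 scale, Tagln by 3.42 and Acta2 by 3.37, while Col3a1, type III collagen, fell by 2.00 and Tgfbi, a secreted matrix protein, fell by 1.29. On the storage list 3 of 15 were higher and 2 lower. Thbs1, thrombospondin 1, which can activate latent TGF-beta, was at 5.22, Itgb1 at 0.54 and Mmp2 at 0.51, against Fbn1, the fibrillin that anchors LTBPs, at -1.63 and the protease Bmp1 at -1.32. Thbs1 and Scx are also among the perimysial markers used here, and the study named these clusters from Thbs1 and low Col3a1, so their changes are not independent evidence. Fmod, a small proteoglycan of tendon, was higher at 5.72 and Lum lower at -2.71, and of the co-receptors Bambi, a decoy receptor, was higher at 2.97 and Eng, endoglin, lower at -1.92. Of 12 Smads and regulators 0 were called by edgeR, with 3 at an unadjusted p under 0.05 and 3 called by DESeq2. The medians of the lists were 1.6 for targets, 0.51 for storage, 0.28 for proteoglycans, -0.15 for co-receptors and -0.30 for Smads.

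Within the perimysial class, cluster 9 was set against cluster 2. Ltbp2 was higher in cluster 9, and it was the only member called. In the 4 strains that held both clusters it stood at 271.2 scaled counts in Acta2GFP, 67.9 in C57BL6, 64.5 in the pool and 37.8 in PdgfrbGFP for cluster 9, against 4.36, 5.51, 4.39 and 11 for cluster 2. The clusters did not overlap in these strains, and the log2 fold change was 3.97 ± 0.54 with an adjusted p of 0.0192. Cspg4dsRED, which had no cluster 9 value and was not in the fit, stood at 38.4 in cluster 2 (16 cells), above cluster 9 in PdgfrbGFP, and paramysial cells of the pool at 80.4 were above cluster 9 in 3 of the 4 strains. In this comparison 1 of 9 members tested was called, higher in cluster 9, where 0.92% of 11843 genes were called, 0.363% higher and 0.557% lower. Without Acta2GFP, C57BL6 or the pool the adjusted p of Ltbp2 was 0.062, 0.089 or 0.085. It was 0.085 with 10 or more cells per sum and 0.086 without the cells that held endothelial or immune markers.

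Other members kept 1 sign in every strain without passing the test. The log2 fold change was below 0 in 4 of 4 strains for Ltbp1 (-1.61 ± 0.30, adjusted p = 0.0580) and Tgfbr3 (-0.92 ± 0.18, 0.0765), and above 0 in 4 of 4 for Tgfbr2 (0.99 ± 0.20, 0.0871), Tgfb3 (0.76 ± 0.22, 0.235) and Ltbp3 (0.63 ± 0.34, 0.670). DESeq2 called Tgfb3, Tgfbr2, Tgfbr3 and Ltbp1 beside Ltbp2. From the lists, Fn1 (1.61) and Mmp14, a membrane protease (1.2), were higher in cluster 9, Timp1 was higher at 2.16, and Tgfbi (-3.11), Dcn (-1.10) and Col1a1 (-0.89) were lower. Neither the 5 co-receptors nor the 12 Smads and regulators held a call by edgeR, with 2 and 3 genes at an unadjusted p under 0.05 and 1 and 1 called by DESeq2.

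Paramysial cells were compared with endomysial cells in 4 strains, and 0 of 10 members were called by edgeR. At an unadjusted p under 0.05 there were 4 members, and DESeq2 called 0. The background was low as well, at 0.0963% of 14533 genes, 0.0757% higher and 0.0206% lower, and the paramysial sums of 3 of the 4 strains rest on 3 to 6 cells. In the pool 45 of 46 paramysial cells came from soleus, whereas 194 of 302 endomysial cells came from gastrocnemius. The muscles of the pool lay on separate plates, so class cannot be fully told apart from muscle and plate there. Tgfb3 was 268.2 scaled counts in Acta2GFP, 64.5 in C57BL6, 263.4 in the pool and 352.7 in PdgfrbGFP in paramysial cells. The C57BL6 value came from 3 cells, and the other strains lay above all endomysial values. The log2 fold change was 1.62 ± 0.47 with an adjusted p of 0.389, and it passed without C57BL6 (2.12, adjusted p = 0.034) and without the cells that held endothelial or immune markers (2.14, 0.047). The value was above 0 in 4 of 4 strains for Ltbp3 (0.97 ± 0.37, adjusted p = 0.610) and Ltbp1 (0.79 ± 0.31, 0.634), and below 0 in 4 of 4 for Tgfbr3 (-1.19 ± 0.39, 0.447). The median log2 fold change was 0.42 for members and -0.86 for all genes. Aspn, a small proteoglycan, was called higher at 1.99 and Cilp, which can bind TGF-beta, at 2.18. The storage list (15 tested), the co-receptors (5) and the Smads (12) held 0 calls by edgeR. Their counts at an unadjusted p under 0.05 were 2, 0 and 1, and DESeq2 called 0, 1 and 1.

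Cluster 10 was measured in Cspg4dsRED, the pool and PdgfrbGFP only. In Cspg4dsRED 90.2% of the endomysial cells lay in cluster 6, so there the comparison is mostly with that cluster. By the mean, cluster 6 was lowest in Ltbp1 among the endomysial clusters, and clusters 1 and 6 were highest in Tgfb2. Against endomysial cells, 0 of 9 members tested were called by edgeR, where 0.442% of 12455 genes were called (0.265% higher, 0.177% lower). At an unadjusted p under 0.05 there were 4 members, and DESeq2 called 3. Tgfb2 was 8.25 scaled counts in Cspg4dsRED, 50.8 in the pool and 2.00 in PdgfrbGFP, against 106.0, 88.9 and 72.1 in endomysial cells (log2 fold change -3.53 ± 0.99, adjusted p = 0.351). Ltbp4 was 201.7, 442.0 and 282.9 against 657, 877 and 686 (-1.44 ± 0.23, 0.0795), and without Cspg4dsRED it was called at 0.0044. The groups did not overlap for either gene. Ltbp1 was 36.3, 408.3 and 226.2 against 2.94, 183.6 and 100.1 (1.49 ± 0.37, 0.254), with the cluster 10 value above the endomysial one in 3 of 3 strains. DESeq2 called Tgfb2, Ltbp1 and Ltbp4. Without the pool the cluster 10 means were 5.12 for Tgfb2, 12.3 for Tgfb3 and 131.3 for Ltbp1. Thbs1 was higher at 4.74 and Aspn lower at -5.77. Among the targets (12 tested), the co-receptors (5) and the Smads (11), edgeR called 0, with 7, 2 and 2 at an unadjusted p under 0.05 and 5, 1 and 2 called by DESeq2. The median log2 fold change was -1.4 for members and -0.41 for all genes.

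The 5 endomysial clusters differed in Tgfb2, Tgfbr2, Ltbp1 and Ltbp4. An F-test of any difference in edgeR, with 4 strains, called these 4 of 10 members, where 5.46% of 16498 genes were called. Cspg4dsRED was left out of this fit, since only cluster 6 of its endomysial clusters had 3 or more cells, and the means below are over the strains in the fit.

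**Figure D4:**
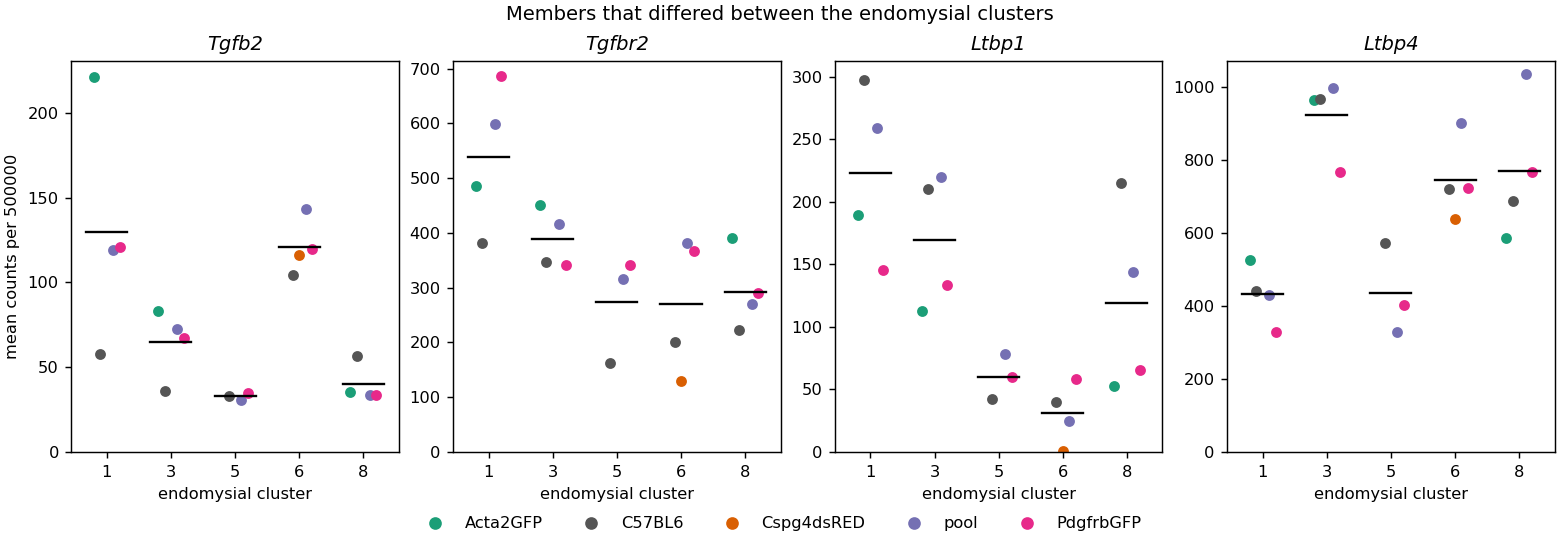
The 4 members that differed between endomysial clusters. Points give the mean counts per 500000 of each strain label on a linear axis from 0, and bars the mean over the strains plotted. By the mean, cluster 1 was highest in Tgfbr2 and Ltbp1, cluster 3 in Ltbp4, and cluster 6 was lowest in Ltbp1, and the Cspg4dsRED point in cluster 6 did not enter the test.

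Ltbp4 was 923 ± 105.3 scaled counts in cluster 3, 782 ± 103.7 in cluster 6, 769 ± 192.0 in cluster 8, 434.5 ± 126.1 in cluster 5 and 431.1 ± 81.4 in cluster 1. Clusters 3, 6 and 8 overlapped one another, and every value in clusters 5 and 1 lay below them, although cluster 5 in C57BL6, at 573.5, came close to cluster 8 in Acta2GFP, at 587. The adjusted p was 0.00103. Tgfb2 was 129.6 ± 67.7 in cluster 1 and 122.4 ± 19.9 in cluster 6, against 64.7 ± 20.5 in cluster 3, 39.8 ± 11.3 in cluster 8 and 32.9 ± 2.03 in cluster 5 (adjusted p = 0.0136). Cluster 1 was uneven, at 221.0 in Acta2GFP (6 cells) and 57.6 in C57BL6.

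Ltbp1 ran from 222.8 ± 68.4 in cluster 1 and 169.2 ± 54.0 in cluster 3 through 119.3 ± 75.7 in cluster 8 and 60.2 ± 18.0 in cluster 5 to 40.8 ± 16.7 in cluster 6 (adjusted p = 0.0266). In cluster 6 it was 39.7 in C57BL6, 24.7 in the pool, 58.0 in PdgfrbGFP and 0.646 in Cspg4dsRED, so Cspg4dsRED, whose endomysial cells were mostly of cluster 6, was the lowest within that cluster too. Tgfbr2 was 538 ± 132.9 in cluster 1 and 389.1 ± 53.8 in cluster 3, with clusters 6, 8 and 5 at 316.5, 293.0 and 273.6 (adjusted p = 0.0146). Without PdgfrbGFP the adjusted p was 0.056 for Ltbp4, 0.24 for Tgfb2 and 0.16 for Tgfbr2, without the pool 0.21 for Tgfb2, 0.18 for Tgfbr2 and 0.28 for Ltbp1, without C57BL6 0.087 for Tgfbr2 and 0.15 for Ltbp1, and without Acta2GFP 0.06 for Ltbp1. Without the replicate block it was 0.11 for Tgfbr2. Ltbp1 stood at 0.066 with 10 or more cells per sum and at 0.054 without the cells that held endothelial or immune markers.

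The other members were not called between endomysial clusters. Tgfb3 stood at 143.2 ± 94.7 scaled counts in cluster 5 and at 55.5 ± 19.0 in cluster 3 (adjusted p = 0.0774), and Tgfbr3 at 234.7 ± 83.4 in cluster 5 and 92.9 ± 17.2 in cluster 6 (0.118). Tgfbr1 lay between 7.95 ± 3.20 in cluster 8 and 27.8 ± 1.76 in cluster 6 (0.190), and Ltbp3 between 45.2 ± 28.7 in cluster 1 and 110.4 ± 14.1 in cluster 8 (0.248).

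All 5 proteoglycans differed between these clusters, with ranges of the log2 level over clusters from 0.41 (Dcn) to 3.11 (Fmod). Of the storage list 3 of 16 differed (Fn1 over a range of 3.83, Fbn1 of 2.48, Bmp1 of 1.3), of the co-receptors 3 of 5 (Cd109 2.94, Eng 2.15, Vasn 1.55), and of the targets 4 of 13 (among them Cilp 4.06, Tgfbi 2.33 and Col1a1 1.00). The Smads held 0 of 12 by edgeR, with 1 at an unadjusted p under 0.05 and 1 called by DESeq2.

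Soleus, a slow muscle, was compared with gastrocnemius, a mostly fast one, in endomysial cells of the pool and PdgfrbGFP for which the muscle was kept apart. Of 10 members 0 were called by edgeR and 0 by DESeq2, and 1, Tgfbr2, had an unadjusted p under 0.05. Of 16337 genes in all, 0 were called (0%, 0 higher and 0 lower), 807 had an unadjusted p under 0.05, and DESeq2 called 111, and with 1 residual degree of freedom the design has little power. Tgfbr2 was 355.5 scaled counts in soleus of the pool and 466.7 in its gastrocnemius, and in PdgfrbGFP 344.0 and 449.2, a log2 fold change of -0.48 ± 0.16 (adjusted p = 0.967). Ltbp4 was 888 and 872 in the pool and 702 and 650 in the PdgfrbGFP cells (0.02 ± 0.15, 0.998). Tgfb3 stood at 65.6 and 58.0, and at 118.8 and 99.99 (0.21 ± 0.19, 0.967). In the pool the muscles lay on separate plates, so muscle and plate cannot be told apart there. All 5 lists held 0 calls by edgeR. Unadjusted p under 0.05 was found for 2 storage genes, 2 proteoglycans, 0 co-receptors, 1 Smad or regulator and 2 targets, of which DESeq2 called 0, 1, 0, 0 and 2.

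**Figure D5:**
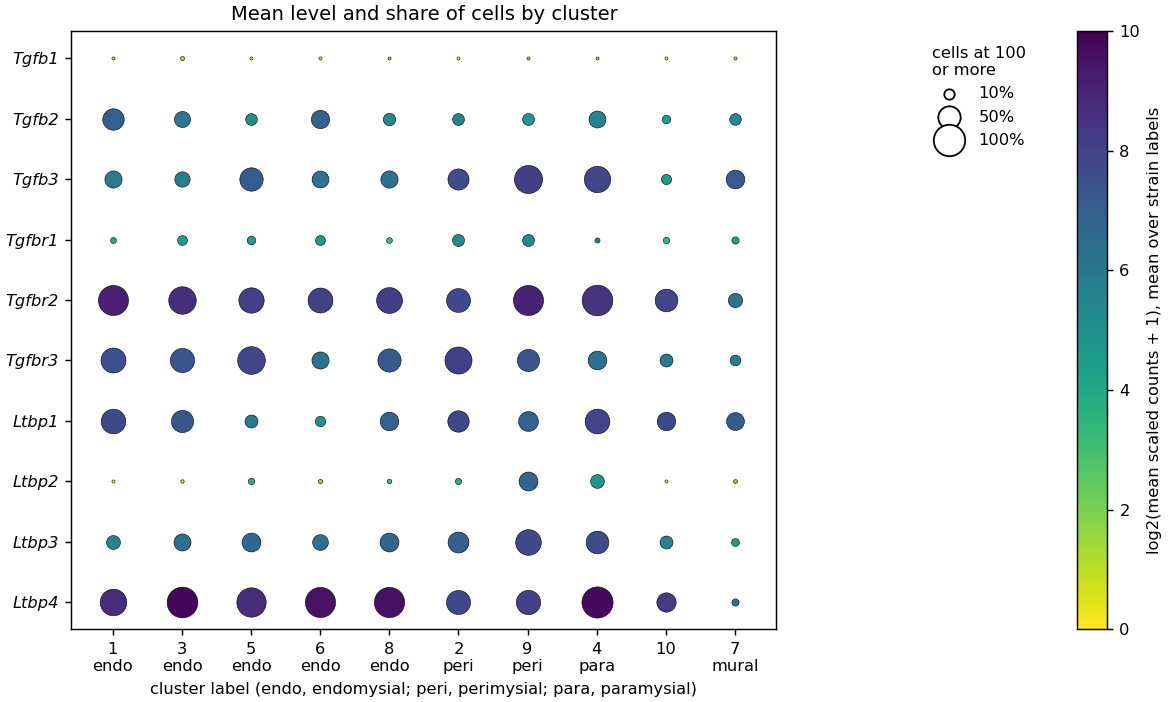
The 10 genes by cluster. Colour gives the mean level over strain labels as log2(mean scaled counts + 1) and dot area the percent of all cells of the cluster with 100 or more scaled counts. Ltbp2 had its highest mean in cluster 9, and the colour and dots stand out for Ltbp4 in clusters 3, 4, 6 and 8, Tgfbr2 in clusters 1 and 9, and Tgfb1 in none.

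Across the 40 sums of a cluster within a strain (3 or more cells), the genes with the pattern most like each member were found by Pearson's r of log2 CPM among 16799 genes. These sums share cells' clusters, strains and depth, so r is a description. Ltbp4 followed Lrp1, an endocytic receptor (r = 0.927), Bicc1 (0.922) and Col6a1, a type VI collagen chain (0.908). Tgfbr2 followed Vat1 (0.897), Sulf1, a heparan sulfatase (0.843), and Tmsb10 (0.836). Tgfbr3 lay nearest to Amotl2 (0.793), Cd109, a TGF-beta co-receptor (0.763), and Zbtb20 (0.750), and Ltbp3 to Htra2 (0.794) and Tenm3 (0.768). Ltbp2 was most like Zfp185 (0.763), Scx (0.709) and Fmod (0.709). For Tgfb3 the nearest were Gm15270 (0.772), Gm37804 (0.769), which shares exonic bases with it, and Ccn2, a connective tissue growth factor (0.729). Tgfb2 (Clic1 0.724, Glud1 0.698, Abhd5 0.694), Tgfbr1 (Fam189b 0.714, Gm19710 0.709, Memo1 0.683), Tgfb1 (Zfp746 0.708, Zfp748 0.705, Dtx3l 0.677) and Ltbp1 (Ssr3 0.661, Hnrnph2 0.647, Adgrg2 0.647) had weaker neighbours. Among the members themselves r was highest for Tgfb3 with Ltbp2 (0.649) and Tgfbr2 with Ltbp4 (0.620), and lowest for Tgfb3 with Ltbp4 (-0.295).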

How the data were processed

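The authors sorted single cells into plates, prepared Smart-seq2 libraries and, per the labels and their methods, demultiplexed reads with bcl2fastq, trimmed adapters, mapped reads to GRCm38 (mm10) with TopHat2 and Bowtie or Bowtie2, and counted them per gene with featureCounts of Subread. The deposited values are raw read counts per gene and cell, without molecular identifiers, so intervals and limits cover counting error only. The annotation release and the use of strand are not given in the sources used here. The 92 spike-ins, 1.31% of counts, were left out, and 1 column that matched no label was not used. Of 46517 identifiers, 46005 matched GENCODE M21, which gave names, exons and coordinates.

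For each class and strain label with 3 or more cells, counts were added up over its cells and tested with edgeR 4.0.16 in R 4.3.3 (quasi-likelihood test, TMM, filterByExpr, strain label as a block, Benjamini-Hochberg over all genes tested), with 0.05 as the threshold. The study compared single cells with monocle, which was not used because cells of 1 mouse are not replicates. Levels and figures were computed with Python 3.11.15 and pandas 2.3.3. Scripts were tested on simulated data. Alternatives were DESeq2 1.42.0, RLE size factors, no filter, no replicate block, cells weighted alike, 10 or more cells per sum, each strain label left out, a detection level of 20 scaled counts, and cells thinned to 50000 counts. Another, chosen after seeing the data, left out 175 cells (9.98%) with 20 or more scaled counts of an endothelial or immune marker other than Tek, which marked many endomysial cells.

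The members and gene lists were chosen with earlier results of these data known. All members are named, and of each list up to 3 called genes per direction with the largest log2 fold change, beside the 3 genes most like each member in Pearson's r. Some genes that this rule names are not reported here. Sequences are RefSeq promoters of GRCm38.p6. As a check of the pairing by strain, deviations from the group means were correlated between the groups of 1 strain label. The values were 0.144 to 0.299 in the perimysial comparison and 0.0863 to 0.173 in the mural one. Between different strain labels the highest values were 0.136 and 0.106, so the mural ranges overlapped.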

Additional observations from a re-analysis of the deposited data

Results flagged for a closer look

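In groups of 4 or 5 strain labels, 5 of 40 levels held 1 strain far from the others by Dixon's test, where chance flags about 1 in 20. Of these 5, 4 came from Cspg4dsRED, the shallowest strain label. Ltbp1 was 2.94 scaled counts in endomysial cells of Cspg4dsRED (51 cells), against 100.1 to 183.6 in the other strains, and 28.8 in its perimysial cells (18 cells), against 173.8 to 343. Tgfbr3 was 15.8 in endomysial cells of Cspg4dsRED, against 122.7 to 183.9, and Tgfbr1 was 0.298 in its perimysial cells, against 28.9 to 50.9. Within cluster 6, which held most of the endomysial cells of Cspg4dsRED, Tgfbr3 was 13.8 there, against 76.3 to 110.6 in the other strains. In PdgfrbGFP, Tgfb3 stood apart upward, at 100.4 in endomysial cells against 50.7 to 60.7.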

How the results depend on the processing

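With DESeq2, 3 members were called in cluster 10, 5 in cluster 9 against cluster 2 and 8 between endomysial clusters, and over all genes 4336 were called in mural, 2068 in perimysial, 796 in paramysial and 993 in cluster 10 cells, 848 in cluster 9 against cluster 2, 2573 between endomysial clusters and 111 between muscles. Without a filter on low counts, 2 members were called in cluster 10 and 4 in cluster 9 against cluster 2, and 274 and 345 of all genes. With 10 or more cells per sum, cluster 9 against cluster 2 held 0 members and 35 genes and cluster 10 held 0 genes. Without the cells that held endothelial or immune markers, 1 member was called in paramysial cells and 0 in cluster 9 against cluster 2, with 1363 genes in mural cells and 50 in cluster 9 against cluster 2. Without the replicate block, 8 genes were called in paramysial cells. Mural Tgfbr3 (-1.47) and endomysial Tgfbr2 lost their calls, and no other call on a member was lost. The mural split was 966 higher to 1178 lower without the block and 854 to 1286 with it. Same-strain deviations correlated below 0.1 in at least 1 strain in the mural, paramysial, cluster 10 and cluster 9 comparisons. In each of these the lowest same-strain value was below the highest value between different strain labels.

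Leaving out each strain in turn, 2 to 4 members were called in mural, 3 to 5 in perimysial, 0 to 1 in paramysial and cluster 10 cells and in cluster 9 against cluster 2, and 1 to 4 between endomysial clusters. Over all genes the counts were 1230 to 2257, 395 to 1416, 10 to 64, 0 to 216, 35 to 50 and 242 to 737 in the same order. Of 707 alternatives to log2 values 26 changed sign, and none was of a called member. In mural cells these were Tgfb1 with cells weighted alike (-0.15) and without Acta2GFP (-0.54), Tgfbr1 with 10 or more cells per sum and without C57BL6 (0.48 in both), and Ltbp1 with cells weighted alike (0.07), 10 or more cells per sum and without C57BL6 (0.46 in both). In paramysial cells they were Tgfb1 without the replicate block (0.19), without the pool (0.30) and without PdgfrbGFP (0.28), Tgfbr2 without a filter (-0.07), with cells weighted alike (-0.04), without marker cells (-0.10), without Acta2GFP (-0.06) and without C57BL6 (-0.08), Ltbp2 without Acta2GFP (-0.27) and without the pool (-0.84), and Ltbp4 with cells weighted alike and without Acta2GFP (0.13 in both). In cluster 10, Tgfbr2 (0.21) and Ltbp3 (0.07) did so with 10 or more cells per sum and without PdgfrbGFP. The rest were Ltbp4 in cluster 9 against cluster 2 without Acta2GFP (-0.11), and between muscles Ltbp2 without marker cells (2.01) and Ltbp4 with cells weighted alike (-0.03). Over the strains left out, mural Tgfb1 ran from -0.54 to 1.01, Tgfbr1 from -0.59 to 0.48 and Ltbp1 from -0.53 to 0.46. In paramysial cells Tgfb1 ran from -1.10 to 0.30, Tgfbr2 from -0.08 to 0.15, Ltbp2 from -0.84 to 2.58 and Ltbp4 from -0.37 to 0.13, and in cluster 10 Tgfbr2 from -0.63 to 0.21 and Ltbp3 from -0.95 to 0.07. Ltbp4 in cluster 9 against cluster 2 ran from -0.11 to 0.30.

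Of 270 alternatives to mean levels 1 moved by more than the SD between strains, Tgfbr2 in paramysial cells from summed counts (394). Leaving out 1 strain cannot move a mean that far, so this rule could not flag the alternatives that left out a strain. Without Acta2GFP the perimysial mean of Ltbp2 went from 59.6 to 29.6. Without the pool the cluster 10 mean of Tgfb2 went from 20.3 to 5.12. Of 100 shares of cells 68 moved with the detection level or thinning, so shares compare classes only at 1 level. Paramysial cells with 10 or more cells per sum could not be fitted, since only the pool remained, and leaving out a strain between muscles left 1 pair and no test. The causes were not tested.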

Other observations

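Tgfb1, low as it was, stood at 5.22 scaled counts in soleus and 1.46 in gastrocnemius endomysial cells of the pool, and at 2.66 and 0.472 in those of PdgfrbGFP (log2 fold change 2.03 ± 0.87, adjusted p = 0.967 by edgeR, above 0 in 2 of 2 strains). In the pool the muscles lay on separate plates. There 1.85% of the 108 soleus and 0.516% of the 194 gastrocnemius cells reached 100 scaled counts, so single cells weigh on these means. In PdgfrbGFP 0% did in either muscle.

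The number of members at 100 or more scaled counts in 1 cell had a median of 4 in perimysial and paramysial cells, 3 in endomysial cells and 1 in mural and cluster 10 cells, and the highest number was 8. In endomysial cells 304 were positive for Tgfb2 and 304 for Tgfb3, and 96 for both, which is 31.6% of each. Among all endomysial cells 27.2% were positive for each gene. In perimysial cells 44 were positive for Tgfb2, 167 for Tgfb3 and 19 for both, or 43.2% of the former and 11.4% of the latter. Among all perimysial cells 13.4% were positive for Tgfb2 and 50.9% for Tgfb3.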
